A study of Mus musculus with 20 samples.

Results

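The tumour suppressor p53 is a transcription factor that is kept scarce in unstressed cells by the ubiquitin ligase Mdm2 and its partner Mdm4, and that accumulates after DNA damage or unscheduled entry into the cell cycle. It then raises the transcription of genes that halt division, repair DNA or kill the cell, and Mdm2 is itself one of them, which closes a feedback loop. In the developing lens, p53 is best known for the death of fibre cells that fail to leave the cell cycle when the retinoblastoma protein, the inhibitor of the E2F factors, is missing. The genes described here are p53 (Trp53), its relative Trp73, its regulators and its known targets, 34 genes chosen by name, with the Bcl2 family left out. They were chosen with earlier results of these data known, so their counts are not independent of these data. Of these, 33 had a probe set on the array and 30 were measured well enough to be tested, among 18193 genes on the array and 11859 tested. Trp53 was not analysed here, because no probe set was named for it in the annotation used.

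Lens RNA of 20 mice was hybridised to Affymetrix mouse genome arrays, with 1 array per mouse and both lenses of a mouse in a sample. The TKO mice carried the Cry-Cre transgene, null alleles of E2F1 and E2F2 and floxed alleles of E2F3 (Cry-Cre, E2F1-/-, E2F2-/-, E2F3f/f), and their lenses were taken at birth (P0, arrays 17, 18, 19, 21 and 22) or from embryos at E17.5 (arrays 24 to 28). The controls were E2F2-/- mice at P0 (arrays 1, 5, 6, 7 and 8) and at E17.5 (arrays 10, 11, 12, 13 and 15). Array numbers are those of the sample titles. By these titles, loss of E2F2 was common to all 20 mice and Cre was named for the TKO mice alone. Floxed E2F3 can be deleted only in cells in which the transgene is active, and the titles do not report the deletion itself. By its name Cry-Cre is driven by a crystallin promoter, which the labels do not describe further. The series asked what happens in the lens before it collapses for want of these E2Fs.

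The labels call the material epithelial cells of the lens, while the protocol describes whole lenses. All 13 lens markers, among them the fibre cell genes Mip, Lim2, Bfsp1 and Bfsp2, averaged above the array median in each of the 4 groups. TKO E17.5 arrays 24 and 27 stood apart from their group: their mean correlation with the E17.5 controls (0.985 and 0.990) exceeded that with the other TKO E17.5 arrays (0.970 and 0.972). TKO E17.5 array 28 had the lowest mean correlation with its own group (0.955, against 0.949 with the controls), with lens markers 0.37 below and macrophage and endothelial markers 1.38 and 1.22 above the control mean (medians over the markers). Array means of macrophage markers at E17.5 were 5.46 to 7.16 in TKO against 5.63 to 6.67 in control lenses, and those of endothelial and pericyte markers 6.42 to 8.38 in TKO against 6.81 to 7.54 in control lenses, with array 28 highest in both. Markers of retina, pigment cells and macrophages were higher in TKO P0 lenses, and all P0 results below, those of the further lists included, come from these same arrays. Levels are log2 values as deposited, array medians lay between 5.05 and 5.25, and precision is set by the 5 arrays of each group. Since RNA came from whole lenses, fewer cells of a type and less RNA per cell cannot be told apart.

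The promoters of these genes were searched for the p53 response element first, because it is the feature that ties a target to the factor. In RefSeq promoters of the GRCm38.p6 build (300 bases, 250 before to 50 after a transcription start), 26 of the 34 genes had 37 promoter entries. The element searched was a pair of adjacent decamers of the p53 consensus without spacer, on either strand, with both CWWG cores intact and at most 3 mismatches in 20 bases. It was found for 5 of 26 genes (19.2%), namely Aen, Cdkn1a, Gtse1, Rps27l and Trp53, and for 182 of 27025 genes of the whole table (0.673%). The genes were listed as known p53 targets, so a higher share among them follows from that choice and is not a result of these data. The promoters of the 4 genes measured on the array are shown with the element in capitals, each on the plus strand. Cdkn1a, Rps27l and Aen were higher in all 5 TKO P0 arrays than in any control, as described below, and Gtse1 did not pass the test. Whether the element bears on these changes was not tested.
Cdkn1a chr17:29090729-29091028: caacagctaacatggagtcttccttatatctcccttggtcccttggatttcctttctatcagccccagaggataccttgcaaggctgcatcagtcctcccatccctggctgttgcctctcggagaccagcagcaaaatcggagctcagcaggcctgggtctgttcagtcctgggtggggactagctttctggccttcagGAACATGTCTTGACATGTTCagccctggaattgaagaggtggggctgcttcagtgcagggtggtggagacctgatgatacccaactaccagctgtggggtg
Rps27l chr9:66946163-66946462: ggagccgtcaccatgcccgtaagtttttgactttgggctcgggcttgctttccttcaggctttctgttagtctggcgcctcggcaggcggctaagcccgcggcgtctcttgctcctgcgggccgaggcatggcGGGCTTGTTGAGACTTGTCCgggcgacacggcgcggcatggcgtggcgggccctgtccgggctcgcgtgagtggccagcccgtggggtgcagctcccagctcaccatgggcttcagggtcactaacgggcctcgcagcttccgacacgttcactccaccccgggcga
Aen chr7:78895677-78895976: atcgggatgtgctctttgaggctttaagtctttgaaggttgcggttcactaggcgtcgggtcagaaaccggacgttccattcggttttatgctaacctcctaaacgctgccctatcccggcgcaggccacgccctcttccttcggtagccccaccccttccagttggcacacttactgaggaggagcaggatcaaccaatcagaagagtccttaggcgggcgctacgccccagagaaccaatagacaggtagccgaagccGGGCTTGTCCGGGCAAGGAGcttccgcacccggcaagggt
Gtse1 chr15:85859696-85859995: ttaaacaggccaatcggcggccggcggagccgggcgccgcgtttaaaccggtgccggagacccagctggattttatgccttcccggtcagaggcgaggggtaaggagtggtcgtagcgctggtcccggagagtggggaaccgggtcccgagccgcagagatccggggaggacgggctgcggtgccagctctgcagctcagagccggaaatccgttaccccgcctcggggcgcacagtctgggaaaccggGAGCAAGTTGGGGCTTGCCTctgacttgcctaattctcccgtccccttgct
Each of these genes has 2 transcription starts in the table, and the promoter shown is that of 1 of them. The element of Cdkn1a begins 51 bases before the transcription start of the window shown and that of Rps27l 117 bases before it, each with 1 mismatch. The element of Gtse1, also with 1 mismatch, spans the start. That of Aen, with 3 mismatches, begins 10 bases after the start shown, which is position -121 from the other start. The other windows of Cdkn1a, Rps27l and Gtse1 held no element. The windows of the genes not named here held no such element, and p53 elements that lie in introns or farther upstream are outside this search. The E2F site TTTCGCGC or TTTGGCGC, on either strand, was found for 1 of 26 genes (Tap1, 3.85%) and for 251 of 27025 genes (0.929%). A match is a description of the letters, not a measure of binding.

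At P0, 12 of the 30 tested genes were higher in TKO lenses and 4 were lower, while 14 did not pass (limma, Benjamini-Hochberg adjusted p below 0.05 over all 11859 genes). The risen genes were the p21 gene Cdkn1a, Phlda3, Trp53inp1, Plk3, Fas, Aen, Ccng1, Rps27l, Zmat3, Tnfrsf10b, Btg2 and Ercc5, and the fallen ones Ptp4a3, Rrm2b, Mdm4 and Xpc. Cdkn1a had the largest change, 3.62-fold. The median change of the 30 genes was 0.22 on the log2 scale, against -0.01 for all genes tested. Of all genes tested, 20.2% were called higher and 19.4% lower at this stage. In 7 of the 30 genes all 5 TKO arrays lay above all 5 control arrays, and in 1 (Rrm2b) all lay below, against 13.2% and 12.7% of all genes. The 12 higher and 4 lower calls became 1 and 0 once the retina marker level entered the fit, 0 and 0 with the pigment cell level and 1 and 0 with the macrophage level, and calls over all genes fell as well, as given with the markers below.

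Of the genes of cell cycle and growth, 4 of 9 rose at P0 and 1 fell, against 20.2% and 19.4% of all genes. Cdkn1a encodes p21, the inhibitor of cyclin-dependent kinases through which p53 arrests cells. It was at 8.41, 8.48, 8.06, 6.15 and 6.90 in TKO P0 arrays 17, 18, 19, 21 and 22, against 5.67, 5.81, 5.60, 5.66 and 5.98 in control P0 arrays. Arrays 17, 18 and 19 were far above the controls, array 22 was intermediate, and array 21 was only just above the highest control. The change was 1.86 ± 0.40 (log2, SE, adjusted p = 0.00422).

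Ccng1 encodes cyclin G1, a long-known p53 target that recruits a phosphatase to Mdm2. Its values were 11.21, 11.02, 11.16, 10.44 and 10.71 in TKO P0 arrays, against 10.50, 10.30, 10.37, 10.43 and 10.44 in control P0 arrays. Array 21 lay within the control range and the other 4 TKO arrays above them. The change was 0.50 ± 0.13 (adjusted p = 0.0133). The polo-like kinase gene Plk3 was at 6.88, 7.06, 6.42, 6.11 and 5.88 in TKO P0 arrays, against 5.88, 5.88, 5.86, 5.59 and 5.59 in control P0 arrays. Its groups did not overlap, although TKO array 22 exceeded the highest control by less than the rounding shown, and the change was 0.71 ± 0.20 (adjusted p = 0.0172). Btg2, an antiproliferative gene, averaged 8.49 ± 0.22 in TKO and 8.17 ± 0.07 in control P0 lenses (SD, n = 5 each). Its groups did not overlap and it rose by 0.33 ± 0.10 (adjusted p = 0.0209), a call that was lost without control array 7.

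Ptp4a3, which encodes a phosphatase linked to growth and to p53 in mouse fibroblasts, went the other way. It was at 8.33, 8.20, 8.15, 8.56 and 8.79 in TKO P0 arrays, against 8.91, 9.19, 8.84, 9.07 and 8.70 in control P0 arrays. Only TKO array 22 reached into the control range, and the change was -0.54 ± 0.13 (adjusted p = 0.00854). The other 4 genes of this role did not pass. Gtse1, a microtubule-bound protein that escorts p53 out of the nucleus, changed by 0.27 ± 0.11 (adjusted p = 0.0732) and Plk2 by 0.26 ± 0.14 (0.169). Gadd45a, a stress-induced partner of cell cycle kinases, changed by -0.18 ± 0.16 (0.399), and Sfn, the 14-3-3 sigma protein that sequesters mitotic kinases, by -0.01 ± 0.08 (0.962).

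**Figure D1:**
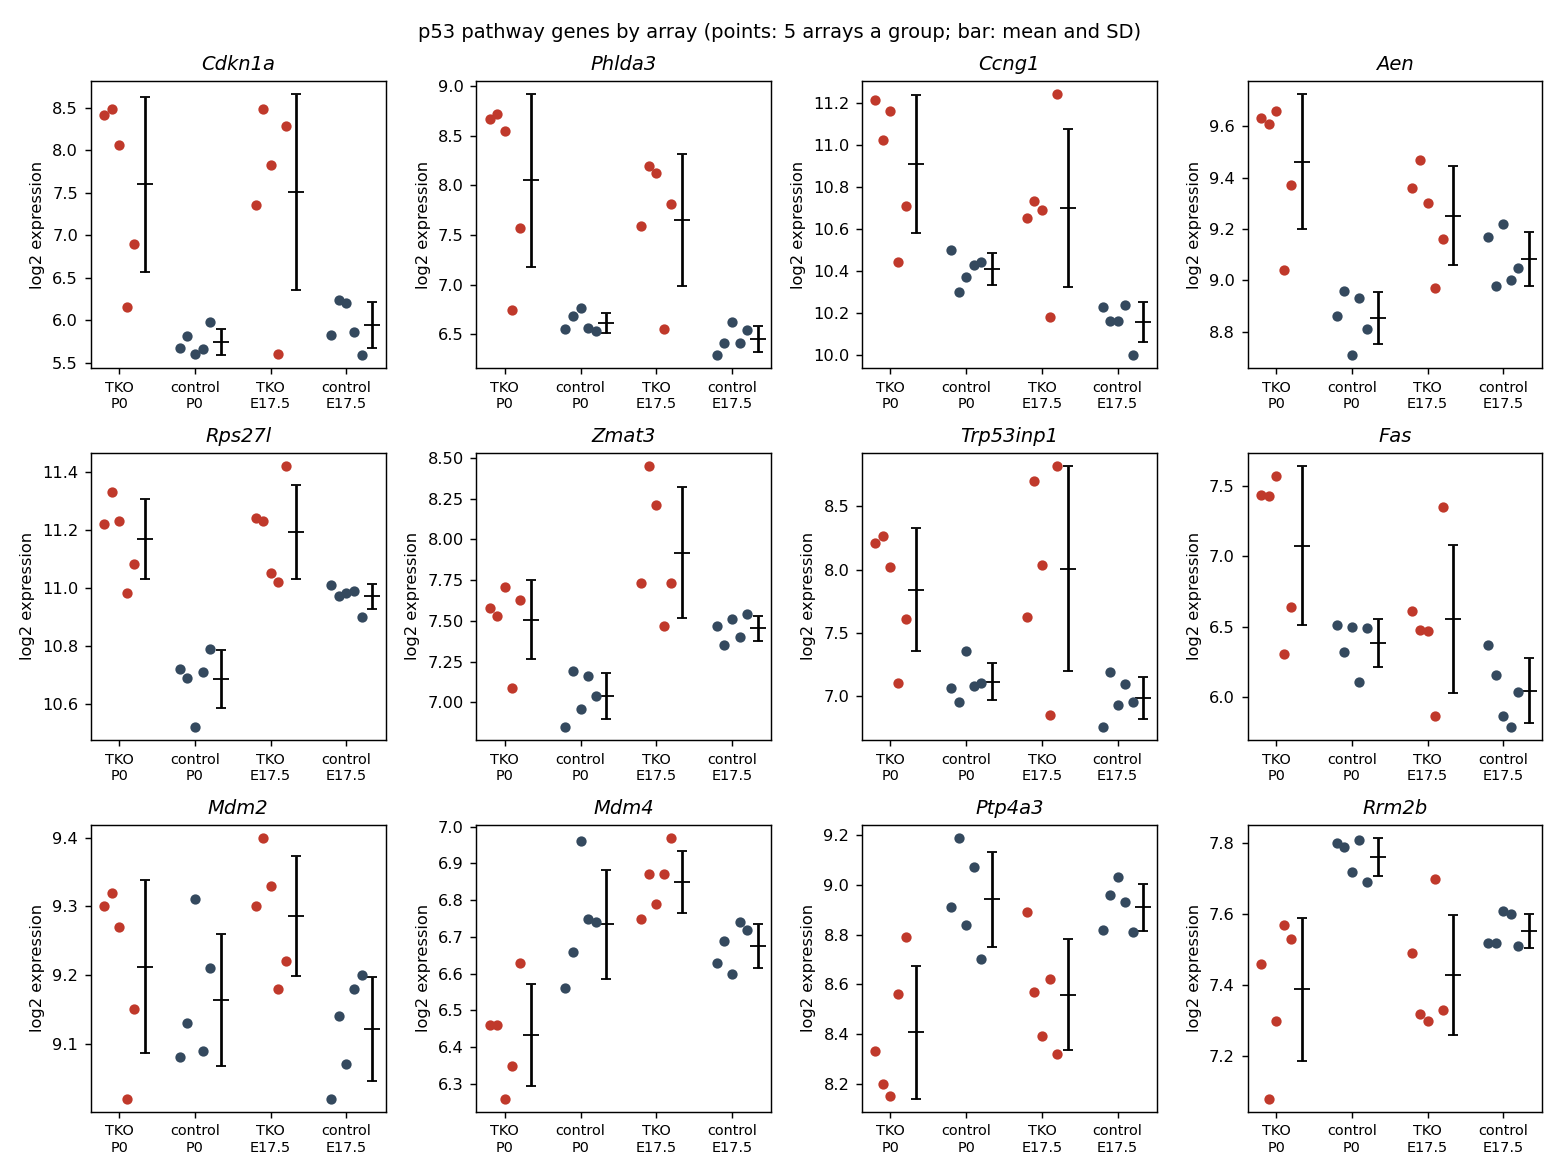
Log2 expression of 12 genes in each array, with TKO left of control at P0 and at E17.5 (points: 5 arrays a group; bars: mean and SD). In Cdkn1a and Phlda3, 3 of 5 TKO P0 arrays and 4 of 5 TKO E17.5 arrays stand far above the controls, while TKO P0 array 21 and TKO E17.5 array 27 lie close to or within them.

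Of the genes of cell death, 5 of 8 tested rose at P0 and none fell, against 20.2% and 19.4% of all genes. The 5 include Tnfrsf10b, which passed the filter on low values through TKO arrays alone, as given below. Phlda3, which blocks the survival kinase Akt at the membrane, was at 8.67, 8.72, 8.55, 6.74 and 7.57 in TKO P0 arrays, against 6.55, 6.68, 6.76, 6.56 and 6.53 in control P0 arrays. Array 21 was the one TKO array inside the control range, just under its top. The change was 1.43 ± 0.33 (adjusted p = 0.00667), or 2.7-fold.

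Aen encodes a nuclease that cuts DNA in dying cells. Its values were 9.63, 9.61, 9.66, 9.04 and 9.37 in TKO P0 arrays, against 8.86, 8.96, 8.71, 8.93 and 8.81 in control P0 arrays. The groups did not overlap, and the change was 0.60 ± 0.11 (adjusted p = 0.00237). Zmat3, a zinc finger protein that binds RNA, was at 7.58, 7.53, 7.71, 7.09 and 7.63 in TKO P0 arrays, against 6.85, 7.19, 6.96, 7.16 and 7.04 in control P0 arrays. Array 21 alone overlapped the controls, and the change was 0.47 ± 0.11 (adjusted p = 0.00827).

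Both death receptors that were tested rose, from low or moderate levels. Fas averaged 7.08 ± 0.56 in TKO and 6.39 ± 0.18 in control P0 lenses, a change of 0.69 ± 0.23 (adjusted p = 0.0325). Tnfrsf10b, the receptor for the death ligand TRAIL, averaged 5.19 ± 0.32 in TKO and 4.79 ± 0.13 in control P0 lenses, a change of 0.40 ± 0.14 (adjusted p = 0.0388). It passed the filter on low values through TKO arrays alone (2 at P0 and 4 at E17.5, and 0 of the controls), so its presence among the tested genes is tied to where it is high. Leaving out any 1 of 6 arrays ended the call of Fas (control 5, 6 or 7, TKO 17, 18 or 19), and any 1 of 7 ended that of Tnfrsf10b (any control, TKO 18 or 19). Apaf1, the scaffold of the apoptosome, changed by 0.28 ± 0.12 (adjusted p = 0.0781), Ei24 by 0.15 ± 0.06 (0.0665) and Perp, a protein of cell junctions, by -0.14 ± 0.10 (0.329).

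Eda2r and Dram1 were below the array median in all 20 arrays and were not tested with the others. Eda2r, a receptor for ectodysplasin A2, was at 4.21, 4.26, 4.31, 2.98 and 3.26 in TKO P0 arrays, against 2.85, 2.71, 2.60, 2.71 and 3.06 in control P0 arrays, with array 21 alone inside the control range. At E17.5 it was at 3.96, 5.12, 4.12, 3.09 and 4.66 in TKO arrays 24 to 28, against 2.92, 2.91, 2.60, 2.76 and 2.81 in control arrays, with no overlap. When the filter on low values was dropped, its change passed at both stages, with 1.02 ± 0.25 (adjusted p = 0.0105) at P0 and 1.39 ± 0.30 (adjusted p = 0.0448) at E17.5. In the same fit Dram1, which promotes autophagy, changed by 0.26 ± 0.09 at P0 (adjusted p = 0.0468) and by -0.03 ± 0.10 at E17.5 (0.877), with means between 3.10 and 3.36 in all groups, near the low end of the scale.

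Among the genes of DNA repair and nucleotide supply, 2 rose, 2 fell and 2 did not pass, against 20.2% higher and 19.4% lower of all genes. Rps27l, a p53-induced relative of a ribosomal protein, had the smallest adjusted p of all 30 genes. It was at 11.22, 11.33, 11.23, 10.98 and 11.08 in TKO P0 arrays, against 10.72, 10.69, 10.52, 10.71 and 10.79 in control P0 arrays. All TKO arrays lay above all controls, array 21 lowest among them, and the change was 0.48 ± 0.08 (adjusted p = 0.000938). Ercc5, the nuclease that makes the 3' cut in nucleotide excision repair, rose by 0.28 ± 0.08 (adjusted p = 0.0207), also without overlap, and lost its call without control array 7 or TKO array 17 or 19.

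Rrm2b encodes the p53-inducible small subunit of ribonucleotide reductase, which supplies nucleotides outside S phase. It was at 7.46, 7.08, 7.30, 7.57 and 7.53 in TKO P0 arrays, against 7.80, 7.79, 7.72, 7.81 and 7.69 in control P0 arrays. Every TKO array was below every control, and the change was -0.37 ± 0.09 (adjusted p = 0.00775). Xpc, which recognises damaged DNA, was at 7.58, 7.24, 7.50, 7.36 and 7.49 in TKO P0 arrays, against 7.58, 7.75, 7.75, 7.53 and 7.63 in control P0 arrays. The groups overlapped, and its change of -0.22 ± 0.08 (adjusted p = 0.0433) lost its call without any 1 of 7 arrays (control 1, 5, 6 or 8, TKO 18, 19 or 21). Ddb2, another damage sensor, changed by 0.17 ± 0.08 (adjusted p = 0.103) and the translesion polymerase gene Polk by 0.09 ± 0.11 (0.514).

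The regulators of p53 did not move as one. Mdm2 was at 9.30, 9.32, 9.27, 9.02 and 9.15 in TKO P0 arrays, against 9.08, 9.13, 9.31, 9.09 and 9.21 in control P0 arrays. The groups lay on top of each other, with a change of 0.05 ± 0.07 (adjusted p = 0.643) in the brightest probe set. Its next probe set, described below, rose. Mdm4 was at 6.46, 6.46, 6.26, 6.35 and 6.63 in TKO P0 arrays, against 6.56, 6.66, 6.96, 6.75 and 6.74 in control P0 arrays. Array 22 alone reached into the control range, and the change was -0.30 ± 0.09 (adjusted p = 0.0186).

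Trp53inp1, a nuclear stress protein that binds p53 and promotes its activity, was at 8.21, 8.27, 8.02, 7.11 and 7.61 in TKO P0 arrays, against 7.07, 6.96, 7.36, 7.08 and 7.11 in control P0 arrays. Array 21 lay within the controls and the other 4 TKO arrays above them. The change was 0.73 ± 0.20 (adjusted p = 0.0135). Pml, the organiser of nuclear bodies in which p53 is modified, changed by 0.02 ± 0.07 (adjusted p = 0.862). Trp73 was below the median in all arrays, with means of 4.53 ± 0.21 in TKO and 4.46 ± 0.16 in control P0 lenses and of 4.08 ± 0.16 in TKO and 4.37 ± 0.14 in control E17.5 lenses. Of the remaining genes, the stress-induced sestrin gene Sesn1 changed by 0.14 ± 0.07 (adjusted p = 0.144), the peptide transporter gene Tap1 by 0.10 ± 0.11 (0.531) and the adenylate kinase gene Ak1 by 0.04 ± 0.07 (0.700).

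**Figure D2:**
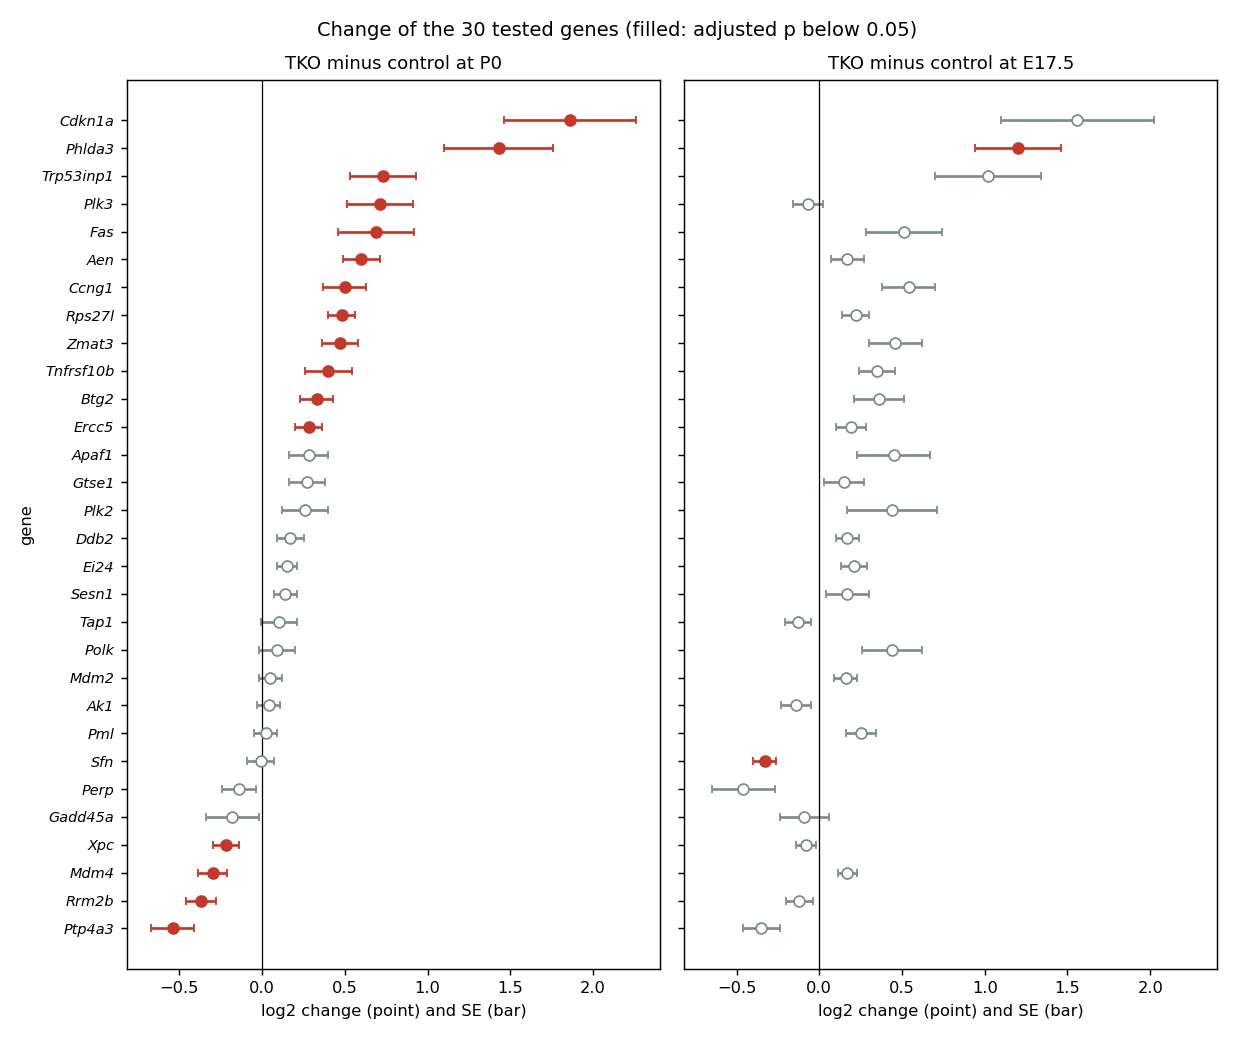
Log2 change with its standard error for the 30 tested genes, TKO minus control at P0 (left) and at E17.5 (right), ordered by the change at P0. Filled points passed at an adjusted p below 0.05: 12 higher and 4 lower at P0, and Phlda3 and Sfn at E17.5.

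At E17.5, only Phlda3 was called higher and only Sfn lower among the 30 genes, against 1.59% and 1.31% of all genes tested. Cdkn1a changed by 1.56 ± 0.46, close to its size at P0, but with an adjusted p of 0.0804. The median change of the 30 genes was 0.18, against -0.03 for all genes. At an unadjusted p below 0.05, 15 of the 30 genes were higher and 3 lower, against 25.6% of all genes in either direction.

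Phlda3 was at 7.59, 8.20, 8.12, 6.55 and 7.81 in TKO E17.5 arrays 24 to 28, against 6.29, 6.41, 6.62, 6.41 and 6.54 in control E17.5 arrays. Array 27 lay within the controls and the other 4 TKO arrays about 1 unit or more above them. The change was 1.20 ± 0.26 (adjusted p = 0.0416). Sfn was at 4.84, 4.90, 4.71, 4.86 and 4.8 in TKO E17.5 arrays, against 5.30, 5.17, 5.14, 5.11 and 5.07 in control E17.5 arrays. It did not overlap and changed by -0.33 ± 0.07 (adjusted p = 0.0332), at a level near the array median and with 5 of 20 arrays above it, the fewest that pass the filter. Those were 2 TKO P0, 2 control P0 and 1 control E17.5 arrays, and 0 TKO E17.5 arrays, so Sfn passed the filter through arrays outside the group where it was called lower. Neither call was firm: leaving out any 1 of the 5 control arrays, or TKO array 25 or 26, ended both, and leaving out TKO array 24 ended that of Phlda3.

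Cdkn1a was at 7.36, 8.48, 7.82, 5.60 and 8.28 in TKO E17.5 arrays, against 5.83, 6.24, 6.20, 5.86 and 5.59 in control E17.5 arrays. Array 27 was at the bottom of the control range, and the other 4 TKO arrays were above all controls. Without array 27 the change was 2.04 (adjusted p = 0.00259), and 6 of 30 genes were called higher (Ccng1, Cdkn1a, Phlda3, Tnfrsf10b, Trp53inp1 and Zmat3), against 4.39% of all genes. Without arrays 24 and 27, which correlated more with the controls, 10 were called higher and 4 lower, against 13.8% and 11.1% of all genes, so that the lower count was near the background. Leaving out TKO arrays that resemble the controls widens the difference between genotypes by choice, so these counts are description only. Without arrays 25 and 26 none was called in either direction, against 0.304% and 0.059% of all genes. Array 28 was the highest TKO array for Ccng1, Fas and Trp53inp1, and without it Phlda3 and Sfn were again the 2 genes called.

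Neither regulator passed at E17.5 in its brightest probe set. Mdm2 was at 9.30, 9.40, 9.33, 9.18 and 9.22 in TKO arrays, against 9.02, 9.14, 9.07, 9.18 and 9.20 in control arrays, a change of 0.16 ± 0.07 (adjusted p = 0.161), while its second probe set rose, as described below. Mdm4 was at 6.75, 6.87, 6.79, 6.87 and 6.97 in TKO arrays, against 6.63, 6.69, 6.60, 6.74 and 6.72 in control arrays. All TKO arrays of Mdm4 thus lay above the controls, the opposite of P0, by 0.17 ± 0.06 (adjusted p = 0.128). With Rps27l and Ei24 it was 1 of 3 genes without overlap upwards, and Sfn the 1 downwards, against 4% and 5.95% of all genes. Among the other large changes that did not pass were Trp53inp1 with 1.02 ± 0.32 (adjusted p = 0.0940), Ccng1 with 0.54 ± 0.16 (0.0807), Fas with 0.51 ± 0.23 (0.189), Zmat3 with 0.46 ± 0.16 (0.120) and Perp with -0.46 ± 0.19 (0.170).

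Phlda3 was the 1 gene called higher at both stages, 15 genes were called at P0 alone and 1 (Sfn) at E17.5 alone. A call at one stage and not at the other is not a difference between stages, so the effects were compared directly. The difference between the effect at P0 and that at E17.5 was called for 0 of 30 genes in limma, against 0.0337% of all genes higher and 0.143% lower, and 5 of 30 had an unadjusted p below 0.05 (4 higher, 1 lower), a share near the 15.7% of all genes. Mdm4 came nearest, with a difference of -0.48 ± 0.11 (unadjusted p = 0.000261, adjusted p = 0.0842), followed by Plk3 with 0.78 ± 0.23 (adjusted p = 0.143), Sfn with 0.33 ± 0.10 (0.156), Aen with 0.44 ± 0.16 (0.197) and Rps27l with 0.26 ± 0.11 (0.267). Cdkn1a differed by 0.29 ± 0.64 (0.857), an interval too wide to say whether its effect was alike at both stages. Without TKO P0 array 22, Plk3 was called higher and Mdm4 lower, and without TKO E17.5 array 28 Mdm4 was called lower.

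The brightest probe set stood for each gene, and 21 of the 33 genes had several. Other probe sets of the same gene showed a larger rise for some genes and little change for others. Fitted on their own, 23 of 49 tested probe sets were higher at P0 and 4 lower, against 20.2% and 18.8% of all probe sets, and 14 of 30 genes had at least 1 that was higher. At E17.5, 7 of 49 were higher and 1 lower, against 4.97% and 2.46%, and the 6 genes concerned were Aen, Apaf1, Ccng1, Cdkn1a, Mdm2 and Phlda3.

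Mdm2 was the clearest case. Its second probe set averaged 7.66 in TKO and 7.09 in control P0 lenses, a change of 0.57 (adjusted p = 0.000604), and 7.65 in TKO and 7.02 in control E17.5 lenses, a change of 0.64 (adjusted p = 0.00243). The brightest one, about 2 units above it, changed by 0.05 and 0.16 as given above. For Ccng1 the 2 dimmer probe sets rose by 1.40 and 0.86 at P0 and by 1.46 and 0.96 at E17.5, where the brightest changed by 0.50 and 0.54. The dimmer probe set of Apaf1 rose by 0.67 (adjusted p = 0.000319) at P0 and by 0.76 (0.0279) at E17.5, and the second of Cdkn1a by 1.60 (0.00205) and 1.40 (0.0362). For Mdm4 the probe sets disagreed in direction: the brightest changed by -0.30 at P0 and the next tested one by 0.21 (adjusted p = 0.256). The other tested probe sets of the fallen genes Ptp4a3 and Rrm2b changed little at P0, by -0.04 (adjusted p = 0.734) and -0.07 (0.721). Dimmer probe sets of Aen changed by 1.06 (0.00025), 0.49 (0.00717) and 0.09 (0.461) at P0. Which transcripts each probe set detects was not looked up here.

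**Figure D3:**
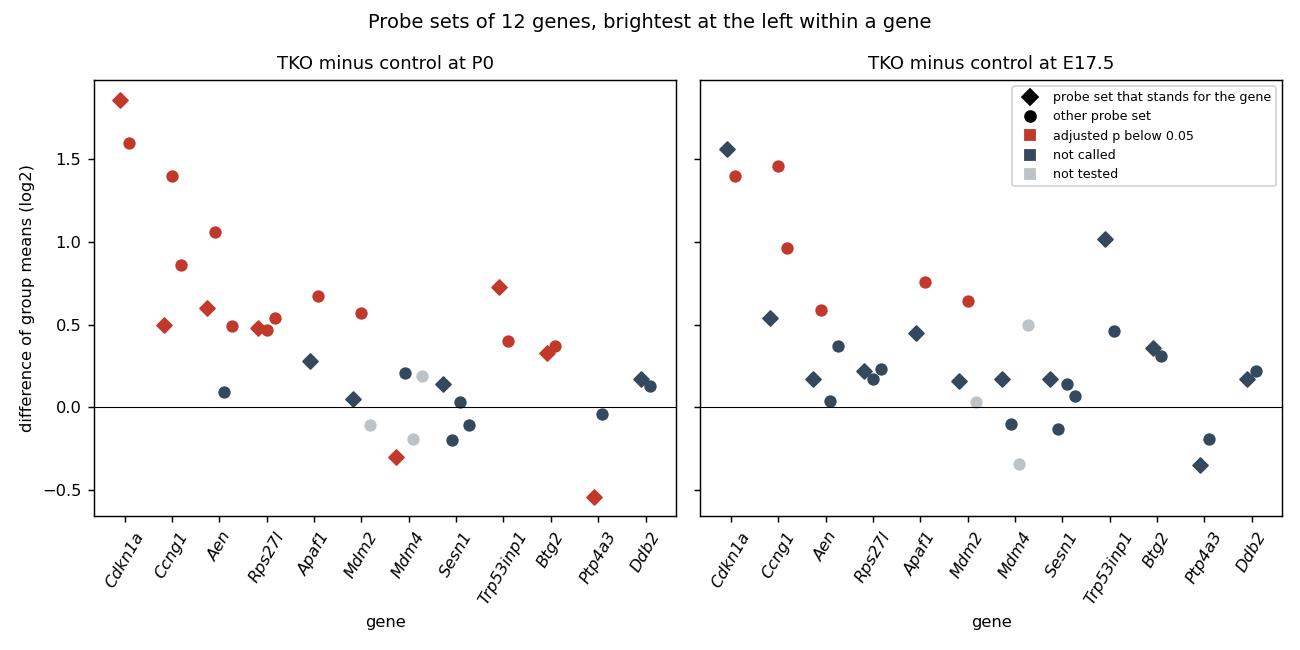
Change of each probe set of 12 genes, TKO minus control at P0 (left) and at E17.5 (right), brightest at the left within a gene (diamond: the probe set that stands for the gene; red: adjusted p below 0.05; grey: not tested). The 2 dimmer probe sets of Ccng1, the dimmer one of Apaf1 and the second of Mdm2 rise at both stages, while the brightest of Mdm2 and its dimmest, which was not tested, lie near 0.

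The rise was uneven among TKO mice. For the 12 genes called higher at P0, arrays 17, 18, 19 and 22 were above all 5 controls in 12 of 12, and array 21 in 7 of 12. The 12 genes were called in these same arrays, so high counts at P0 are partly built in. Array 21 was the lowest of the 5 TKO arrays in 9 of the 12. Over all 30 genes, the number above every control was 19, 20, 20, 8 and 15 in arrays 17, 18, 19, 21 and 22, where 32.4, 36.0, 32.5, 29.2 and 33.8% of all genes were. The count of array 21 was thus near the share of all genes. At E17.5 it was 16, 20, 20, 7 and 17 in arrays 24 to 28, where 22.8, 38.4, 32.6, 17.3 and 35.1% of all genes were. The same 12 genes were above all controls in 10, 11, 11, 2 and 9 of 12. The standard deviation was larger in TKO than in control lenses for 25 of 30 genes at P0 and for 27 of 30 at E17.5, and it was for 72.1% and 87.6% of all genes, so that greater spread was general in the TKO arrays.

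**Figure D4:**
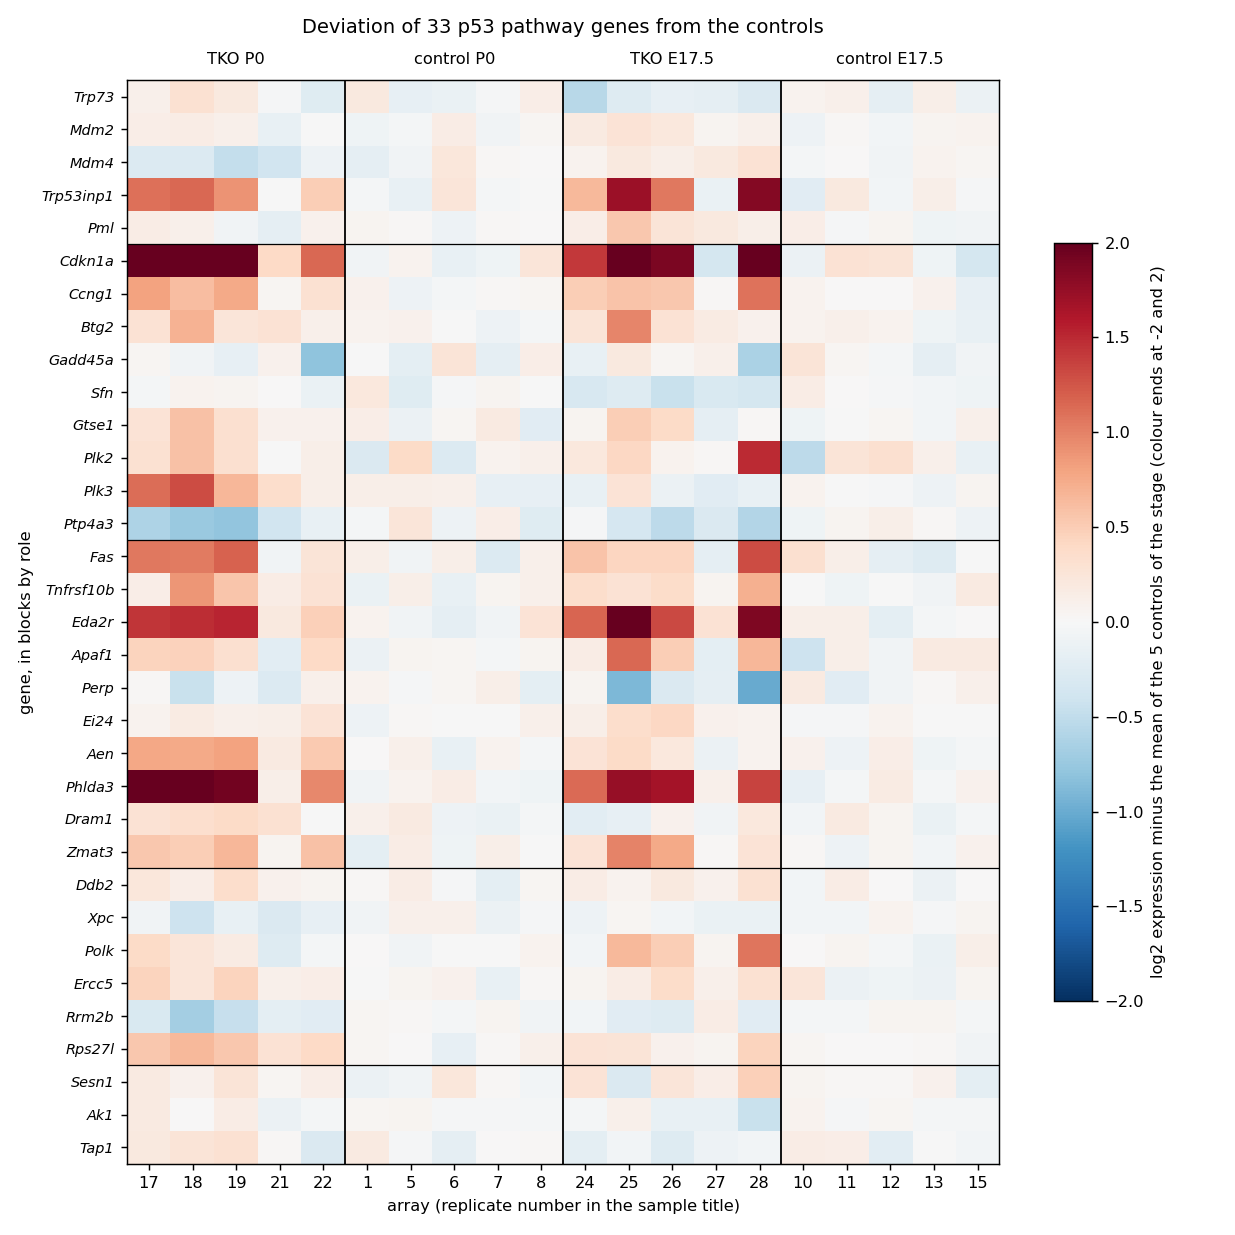
Log2 expression of the 33 measured genes minus the mean of the 5 controls of the same stage, by array, with TKO left of control at each stage and genes in blocks by role (red: above the controls; blue: below). Cdkn1a, Phlda3, Trp53inp1 and Eda2r are red in the same arrays, and the columns of TKO P0 array 21 and TKO E17.5 array 27 are pale.

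Markers of neighbouring eye tissues differed by genotype at P0. Retina markers were higher in TKO P0 lenses for 14 of 15 tested, with array means of 6.76 to 7.62 in TKO against 4.63 to 6.25 in control lenses. Pigment cell markers were higher for 6 of 7, with 6.70 to 7.43 in TKO against 5.78 to 6.24 in control lenses, and the pigment enzyme genes Tyr and Dct changed by 2.18 ± 0.24 and 2.37 ± 0.26. Macrophage markers were higher for 4 of 7, with 5.73 to 6.58 in TKO against 5.04 to 6.0 in control lenses. Of lens markers 3 of 13 were lower (Maf, Pitx3 and Foxe3), and of endothelial and pericyte markers 1 of 9 was lower and 0 were higher, and neither of the 2 tested red blood cell markers was called. At E17.5 no marker of retina, pigment cells or macrophages was called and 1 lens marker (Prox1) was higher, with array means of 5.80 to 8.01 in TKO against 5.76 to 6.72 in control lenses for retina and of 5.47 to 7.05 in TKO against 5.84 to 6.25 in control lenses for pigment cells.

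The p53 genes and these markers were also set side by side by array. TKO P0 array 21 had the highest retina level (7.62) and the fewest p53 genes above the controls (8 of 30). Pigment markers at P0 lay 2.03, 2.18, 2.14, 0.79 and 1.26 above the control mean in arrays 17, 18, 19, 21 and 22 (median over the markers), which is close to the order of Cdkn1a in these arrays. This was not particular to pigment cells: macrophage markers lay 0.88, 0.85, 0.77, 0.29 and 0.28 above the control mean in the same arrays. At E17.5 pigment markers deviated by -0.52, 0.94, 0.75, -0.85 and 1.42 and retina markers by -0.52, 1.84, 1.69, 0.0 and 0.75 in arrays 24 to 28. Array 27 had the lowest pigment level, Cdkn1a at 5.60 and 7 of 30 p53 genes above every control, while arrays 25 and 28 had the highest pigment levels, with Cdkn1a at 8.48 and 8.28. Array 24 had both the retina and the pigment markers below the control mean, Cdkn1a at 7.36 and 16 of 30 genes above every control. Whether the genes and the markers move together was not tested.

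When the mean of the retina markers entered the fit, 1 of 30 genes was called higher at P0 (Zmat3) and 0 lower, against 0.776% and 0.363% of all genes, while the median change stayed at 0.22 and that of Cdkn1a was 2.32 ± 0.77 (adjusted p = 0.127). With the macrophage mean 1 was called higher (Rps27l) and 0 lower, against 6.14% and 3.85% of all genes, with a median of 0.12. With the pigment cell mean 0 were called in either direction, against 0.354% and 0.0675% of all genes, the median was -0.22 and Cdkn1a changed by -0.80 ± 0.66 (adjusted p = 0.539). Neither the retina nor the pigment cell means overlapped between TKO and control P0 lenses, so that these markers and genotype cannot be told apart at this stage. At E17.5, where they overlapped, Cdkn1a changed by 1.25 ± 0.29 with the pigment cell mean in the fit (adjusted p = 0.034), Phlda3 by 1.03 ± 0.18 (adjusted p = 0.0145), and 3 of 30 genes were called higher, against 3.04% of all genes. With the retina mean at E17.5 none was called, Cdkn1a changed by 1.13 ± 0.42 (adjusted p = 0.183) and Phlda3 by 0.97 ± 0.25 (0.0954). Whether the p53 genes rose in lens cells or in these other cells was not tested.

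**Figure D5:**
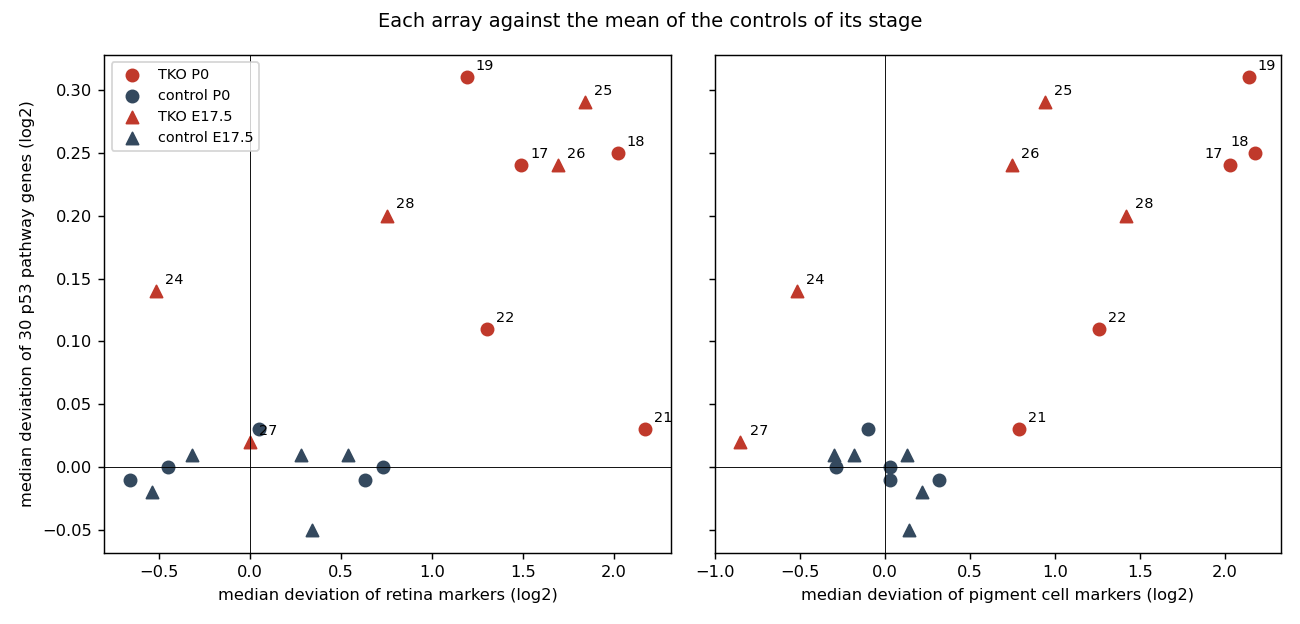
Median deviation of the 30 tested p53 pathway genes from the control mean of the stage (vertical axis, log2) against that of the retina markers (left) and of the pigment cell markers (right), 1 point per array (circles: P0; triangles: E17.5; red: TKO; dark: control). TKO P0 array 21 lies far right and low against retina, TKO E17.5 array 24 lies left of 0 in both panels and above all controls, array 27 lies left and low against pigment cells, and arrays 25 and 28 lie right and high.

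Between the stages, 4 of 30 genes were called in TKO lenses and 15 of 30 in control lenses, and these counts were not tested against each other. In TKO lenses, 3 of 30 were higher at P0 than at E17.5 (Perp by 0.72 ± 0.20, Tap1 by 0.39 ± 0.11 and Sfn by 0.35 ± 0.07) and Mdm4 was lower (-0.42 ± 0.09, adjusted p = 0.0154), against 5.8% of all genes higher and 8.77% lower. In control lenses, 6 were higher at P0 (Perp, Fas, Sesn1, Ccng1, Xpc and Rrm2b, by 0.21 to 0.40) and 9 lower, against 12.5% and 24.9%. The lower ones were Plk3 (-0.44 ± 0.07), Zmat3 (-0.42 ± 0.07), Apaf1, Rps27l, Aen, Gtse1, Ak1, Polk and Ei24. These comparisons share arrays with those of genotype: Plk3, for instance, averaged 6.47 ± 0.50 in TKO P0, 5.76 ± 0.16 in control P0, 6.13 ± 0.20 in TKO E17.5 and 6.20 ± 0.07 in control E17.5 lenses. Whether the change with stage differs between genotypes is the comparison of effects given above, in which no gene was called.

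Genes around p53 outside the 34 were followed through 3 further lists. Of 23 tested modifiers and cofactors of p53, 2 were higher in TKO P0 lenses and 10 lower, with a median change of -0.13, against 20.2% and 19.4% of all genes. The checkpoint kinase genes Chek1 and Chek2 rose by 0.80 ± 0.09 (adjusted p = 0.00019) and 0.39 ± 0.12 (0.0256). The damage mediator Trp53bp1 changed by -0.36 ± 0.05 (adjusted p = 0.000685), the acetyltransferase gene Ep300 by -0.42 ± 0.06 (0.000752), Usp7, whose product removes ubiquitin from p53 and Mdm2, by -0.37 ± 0.06 (0.00142) and the kinase gene Hipk2 by -0.34 ± 0.06 (0.00229). At E17.5 none of the 23 was called in limma and 7 had an unadjusted p below 0.05, near the share of all genes (25.6%). The smallest were those of Chek1, with a change of 0.60 ± 0.19 (adjusted p = 0.0932), and of the ubiquitin ligase gene Ube4b, with -0.40 ± 0.13 (0.101).

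Of 27 further p53 targets, 7 were higher and 4 lower at P0, which is near the shares of all genes (20.2% and 19.4%), with a median change of 0.03 against 0.22 for the 30 genes above. The genes named next are therefore given as single values. The phosphomannomutase gene Pmm1 rose by 0.83 ± 0.09 (adjusted p = 0.000205), the thiamine transporter gene Slc19a2 by 0.75 ± 0.18 (0.0072), the spindle gene Psrc1 by 0.56 ± 0.12 (0.00444) and Prkab1, a subunit of the energy sensor AMPK, by 0.44 ± 0.10 (0.00461). The antiproliferative gene Btg1 changed by -0.98 ± 0.12 (adjusted p = 0.000329), the ubiquitin ligase gene Trim32 by -0.51 ± 0.06 (0.000355), the matrix protein gene Thbs1 by -1.14 ± 0.15 (0.00042) and Ikbip by -0.29 ± 0.10 (0.0375). At E17.5 Trim32 alone was called, with -0.44 ± 0.10 (adjusted p = 0.0495).

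Active p53 is known to lower genes of mitosis through p21 and the DREAM repressor complex, of which E2F4 and the pocket proteins are parts. In TKO P0 lenses these genes were not lower beside the raised Cdkn1a: 14 of 15 were higher and 0 lower, against 20.2% and 19.4% of all genes, with a median change of 0.86. Cks2 and Cdk1 rose by 1.34 each (± 0.14, adjusted p = 0.000166, and ± 0.19, 0.000546), the spindle checkpoint kinase gene Bub1 by 1.15 ± 0.20 (0.00136) and Cdc20, the activator that this checkpoint restrains, by 0.91 ± 0.18 (0.00300). At E17.5, 3 of 15 were higher (Bub1, Aurka and Cdc25c) and 0 lower, against 1.59% and 1.31% of all genes. From E17.5 to P0, 15 of 15 were called lower in control lenses (median -1.15), against 24.9% of all genes. In TKO lenses 8 of 15 were called lower over this time (median -0.51), against 8.77% of all genes. The P0 difference is thus measured against controls in which these genes had fallen, and the difference of effects was called for 0 of 15. The 14 retina markers called higher at P0 come from a tissue that still divides at birth. They rose in the same TKO P0 arrays, and their part in the mitotic genes was not tested.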

How the data were processed

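Both lenses of each mouse were dissected and pooled, and biotin-labelled cRNA was hybridised to Affymetrix arrays, per the labels' protocols. The deposited values are log2 signals made by the authors. How they were background-corrected and normalized is not given in the sources used, and log2 values were analysed as deposited. Of 45101 probe sets, 34945 were named for 1 gene, 932 for several and 9160 for none, and symbols were updated through Entrez identifiers. The probe set with the highest mean over 20 arrays stood for a gene. Genes were tested if it lay above the array median (50th percentile) in at least 5 of 20 arrays.

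Groups of 5 mice were compared with limma 3.58.1 in R 4.3.3 (lmFit and eBayes, two-sided), with only the compared groups in a fit and all 4 in the comparison of effects. P-values were adjusted by Benjamini-Hochberg over all 11859 genes and called below 0.05. The steps were tested on simulated data. The samples are separate mice, and litters, sex and batches are not given, so p-values measure the spread between these mice.

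The members and lists were chosen with earlier results of these data known. Genes called at P0 or E17.5, the p53 regulators, Cdkn1a and members below the filter were named with values, those with the smallest adjusted p at P0 in every array. In other lists up to 4 risen and 4 fallen genes were named. Sequences are from RefSeq promoters of GRCm38.p6. The alternatives were another fit, normalization, filter, probe set rule, array weights, marker means as covariates (those for pigment cells and macrophages chosen after seeing the data) and arrays left out.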

Additional observations from a re-analysis of the deposited data

Results flagged for a closer look

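In 9 of 132 groups of 5 arrays (6.82%), the highest or lowest array of a p53 pathway gene lay far from the other 4, where chance gives about 1 in 20 groups. These concern 4 genes in TKO E17.5, 3 in TKO P0 and 2 in control E17.5 lenses. Btg2 was at 9.10 in TKO E17.5 array 25, against 8.21 to 8.41 in the other 4, and Plk3 in the same array was at 6.48, against 5.98 to 6.08. Plk2, a polo-like kinase gene, was at 8.12 in TKO E17.5 array 28, against 6.66 to 7.05. Trp73 was at 3.81 in TKO E17.5 array 24, against 4.09 to 4.21.

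In TKO P0 lenses, Gadd45a was at 7.33 in array 22, against 7.98 to 8.23 in the others, and Dram1 in the same array was at 3.09, against 3.39 to 3.47. Apaf1 was at 6.25 in TKO P0 array 21, against 6.79 to 6.92. In control E17.5 lenses, Sesn1 was at 9.88 in array 15, against 10.11 to 10.17, and Ei24 was at 9.91 in array 12, against 9.82 to 9.83.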

How the results depend on the processing

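At P0 the counts of 12 higher and 4 lower p53 genes moved most with the marker covariates. Percentages in brackets are the shares of all genes called under the same setting. With the retina mean 1 and 0 were called (0.776% and 0.363%) and with the pigment cell mean 0 and 0 (0.354% and 0.0675%). With the macrophage mean they were 1 and 0 (6.14% and 3.85%), while averaging the probe sets of a gene left 2 lower (17.8%). With the pigment cell mean, Cdkn1a (-0.80), Phlda3 (-0.93), Fas (-0.69), Trp53inp1 (-0.60), Ccng1 (-0.41), Plk3 (-0.36), Mdm2 (-0.23), Aen (-0.15), Tnfrsf10b (-0.10), Zmat3 (-0.03) and Rrm2b (0.01) turned direction at P0. Without probe sets that can match several transcripts, Mdm4 turned to 0.21 at P0, -0.10 at E17.5, 0.39 between stages in TKO and 0.30 in the difference of effects. The difference of effects of Cdkn1a turned to -0.03, -1.0 and -0.41 with the retina, pigment cell and macrophage means, -0.18 without TKO E17.5 array 27 (-0.18 to 0.66 over all single arrays left out) and -0.39 without arrays 24 and 27. At E17.5 the main fit called 1 higher (1.59%) and 1 lower (1.31%). The higher count was 6 in the fit of all 20 arrays (5.54%) and 14 with array weights (14.8%). It was 2 without the filter (0.912%) and 3 with averaged probe sets (2.62%). With the retina, pigment cell and macrophage means it was 0 (0.616%), 3 (3.04%) and 6 (5.44%). Without arrays 24 and 27 it was 10 (13.8%), and without 25 and 26 it was 0 (0.304%). The lower count was 0 after centring (0.405%), with the filter at the 75th percentile (1.96%), with the retina mean (0.169%) or without 25 and 26 (0.059%). It was 3 with array weights (16.2%) or the macrophage mean (8.13%) and 4 without 24 and 27 (11.1%). Between stages in TKO the higher count (3, 5.8%) was 1 after centring (3.13%) or at the 75th percentile (2.68%). It was 8 with array weights (21%) and 0 without 25 and 26 (0.202%). The lower count (1, 8.77%) was 5 in the fit of all 20 arrays (18.9%) or with the pigment cell mean (11.4%). It was 6 with array weights (29.3%), 3 with the macrophage mean (13.7%) and 4 without 24 and 27 (10.7%). It was 0 at the 75th percentile (9.42%), with averaged probe sets (8.15%) or without 25 and 26 (0.371%). Without probe sets that can match several transcripts it was also 0 (8.56%). In controls the higher count (6, 12.5%) was 1 in the fit of all 20 arrays (4.92%) and 3 with the macrophage mean (6.58%). The lower count (9, 24.9%) was 1 in the fit of all 20 arrays (12.3%), 5 at the 75th percentile (32.3%) and 4 with the macrophage mean (16.9%). Array weights gave 5 higher and 3 lower for the difference of effects (10% and 11.8%), and the pigment cell mean 2 lower (0.531%). The cause was not tested for any of these.

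Leaving out 1 array at a time gave 8 to 14 higher and 3 to 4 lower at P0. The shares of all genes were 16.1% to 22% and 14.8% to 22.1%. The E17.5 counts were 0 to 6 and 0 to 2 (0.363% to 4.39% and 0.0506% to 5.13%). Between stages in TKO they were 0 to 3 and 1 to 2 (1.09% to 8.88% and 2.62% to 14%). In controls they were 5 to 6 and 7 to 9 (9.87% to 12.7% and 20.8% to 24.8%). For the difference of effects they were 0 to 1 each (up to 0.759% and 1.95%). At E17.5 the higher count was 0 without any 1 control array (0.363% to 0.514% of all genes). It was also 0 without TKO array 24, 25 or 26 (1.26%, 0.658% and 0.464%), and 6 without array 27 (4.39%). Between stages in TKO the higher count was 0 without P0 array 19 (1.09%) and 1 without P0 array 17, 18 or 21 (1.09%, 1.67% and 4.18%). It was also 1 without E17.5 array 25 or 26 (2.14% and 1.94%). Over all genes at E17.5, 343 were called (54.8% higher), against 197 (75.6%) after centring and 580 (35.7%) after quantile normalization, 1541 in the fit of all 20 arrays, 3681 with array weights and 1129 without array 27. Between stages in TKO 39.8% of calls were higher, against 22.1% after centring and 56.7% after quantile normalization, and in controls 33.4% against 44.5% after quantile normalization. No paired analysis was possible because the groups share no replicate numbers. The 5 arrays a group, and the spread of the TKO arrays, limit what can be called.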
